A study of Mus musculus with 6 samples.

Results

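The genes described are those of the 7 cyclin-dependent kinase (CDK) inhibitors, Cdkn2a, Cdkn2b, Cdkn2c and Cdkn2d of the INK4 family and Cdkn1a, Cdkn1b and Cdkn1c of the CIP/KIP family. They were taken by name from 21887 protein-coding RefSeq genes, and all 7 were found. The data are ATAC-seq profiles, in which a transposase cuts accessible DNA, of mouse embryonic fibroblast line A (C2), immortalised with c-myc. The design had 6 samples in 3 groups of 2, namely wild-type cells, Ezh2 -/- cells, and Ezh2 -/- cells carrying retroviral pMSCV-Ezh2. All 3 groups thus share the c-myc immortalisation. All values below were read from 1 deposited list of intervals, called in the Ezh2 -/- cells. Ezh2 is a catalytic subunit of Polycomb repressive complex 2. The wild-type and rescue profiles were not analysed here, and nothing below compares genotypes. The list has no value per replicate and its read depth is unknown, so no error could be given and no test was made. The labels do not say whether the line is a clone or which part of Ezh2 was removed.

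INK4 proteins bind CDK4 and CDK6 and keep them from cyclin D, whereas CIP/KIP proteins bind cyclin-CDK complexes, among them those of CDK2. Both act to hold the retinoblastoma protein in its growth-suppressing state. Cdkn2a encodes a pair of unrelated proteins from separate starts, the CDK inhibitor p16Ink4a and Arf, which stabilises p53 by binding Mdm2. In mouse fibroblasts Cdkn2a and its neighbour Cdkn2b are classical Polycomb targets that are induced as cells are passaged, and Cdkn1c is an imprinted gene expressed from the maternal chromosome.

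Of the 7 genes, 6 had an accessible interval over the gene, all but Cdkn1c (52.8% of all protein-coding genes had one). The same 6 had an interval within 1 kb of the gene (background 53.7%), and all 7 had one within 100 kb (background 77.0%). In all, 8 intervals lay over or within 1 kb of a member, and they belonged to 7 called regions, since the peak caller's region at Cdkn2d is listed in 2 pieces. All 4 INK4 genes had one, as did Cdkn1a and Cdkn1b. The genes lie in surroundings of unequal background. An interval stood within 1 kb of 57.1% of the protein-coding genes on chromosome 4 (Cdkn2a, Cdkn2b and Cdkn2c), 49.6% on chromosome 9 (Cdkn2d), 61.95% on chromosome 17 (Cdkn1a), 47.8% on chromosome 6 (Cdkn1b) and 41.6% on chromosome 7 (Cdkn1c). Among the other genes within 5 Mb, the share ran from 30.3% around Cdkn1b to 78.1% around Cdkn1a, with 52.15% around Cdkn1c.

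The clearest contrast among the members was between starts of the same gene. RefSeq (GRCm38.p6, the assembly behind mm10) lists 9 starts for 6 of the 7 genes, and 7 of these starts lay under an interval (background 44.2% of 21263 starts). The other 2 were the Ink4a start of Cdkn2a and the lower start of Cdkn1a, and at both genes the other listed start was covered. The RefSeq table of starts names no transcripts, so the upper Cdkn2a start is called Arf and the inner one Ink4a here from textbook gene structure. The 300-base windows at these starts, 250 bases before to 50 after, are shown to make the contrast visible, with those of Cdkn2b and Cdkn1b beside them. They were copied from RefSeq, run 5′ to 3′ on the gene's strand, and have the start at base 251. Capitals mark CpG dinucleotides. On the minus strand lie the window of the covered Arf start (chr4:89294570-89294869), that of the uncovered Ink4a start (chr4:89282143-89282442) and that of Cdkn2b (chr4:89310983-89311282). On the plus strand lie those of Cdkn1a at its uncovered lower start (chr17:29090729-29091028) and at its covered upper start (chr17:29093519-29093818), and that of Cdkn1b (chr6:134920151-134920450).
Cdkn2a, Arf start: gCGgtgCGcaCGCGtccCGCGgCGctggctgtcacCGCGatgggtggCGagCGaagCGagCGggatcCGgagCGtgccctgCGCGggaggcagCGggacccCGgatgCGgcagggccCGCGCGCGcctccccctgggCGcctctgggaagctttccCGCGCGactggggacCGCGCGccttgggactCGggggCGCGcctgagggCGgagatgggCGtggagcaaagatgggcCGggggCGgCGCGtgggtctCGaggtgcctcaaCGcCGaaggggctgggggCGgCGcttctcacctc
Cdkn2a, Ink4a start: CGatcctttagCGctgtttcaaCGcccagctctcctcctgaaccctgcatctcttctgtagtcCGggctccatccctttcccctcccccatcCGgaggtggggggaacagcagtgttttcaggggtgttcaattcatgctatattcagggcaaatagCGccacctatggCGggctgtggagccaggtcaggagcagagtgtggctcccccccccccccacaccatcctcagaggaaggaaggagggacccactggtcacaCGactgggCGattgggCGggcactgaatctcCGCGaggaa
Cdkn2b: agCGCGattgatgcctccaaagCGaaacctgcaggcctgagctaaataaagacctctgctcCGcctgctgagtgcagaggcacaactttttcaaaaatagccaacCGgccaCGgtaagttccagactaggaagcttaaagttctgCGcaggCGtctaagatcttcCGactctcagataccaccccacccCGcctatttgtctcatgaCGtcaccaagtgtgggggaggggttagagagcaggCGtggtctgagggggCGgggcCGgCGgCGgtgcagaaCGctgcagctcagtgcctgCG
Cdkn1a, lower start: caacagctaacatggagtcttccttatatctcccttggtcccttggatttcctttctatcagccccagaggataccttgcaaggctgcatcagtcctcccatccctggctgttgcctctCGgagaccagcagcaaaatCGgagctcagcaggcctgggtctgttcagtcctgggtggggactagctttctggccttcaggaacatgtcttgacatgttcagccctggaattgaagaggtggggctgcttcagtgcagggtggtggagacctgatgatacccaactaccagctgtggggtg
Cdkn1a, upper start: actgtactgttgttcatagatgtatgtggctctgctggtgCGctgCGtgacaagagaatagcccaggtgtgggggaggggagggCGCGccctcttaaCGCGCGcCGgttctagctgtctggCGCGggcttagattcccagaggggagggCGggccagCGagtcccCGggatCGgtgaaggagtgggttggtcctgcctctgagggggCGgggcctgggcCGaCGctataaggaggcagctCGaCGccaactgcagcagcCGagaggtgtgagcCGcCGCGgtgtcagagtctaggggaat
Cdkn1b: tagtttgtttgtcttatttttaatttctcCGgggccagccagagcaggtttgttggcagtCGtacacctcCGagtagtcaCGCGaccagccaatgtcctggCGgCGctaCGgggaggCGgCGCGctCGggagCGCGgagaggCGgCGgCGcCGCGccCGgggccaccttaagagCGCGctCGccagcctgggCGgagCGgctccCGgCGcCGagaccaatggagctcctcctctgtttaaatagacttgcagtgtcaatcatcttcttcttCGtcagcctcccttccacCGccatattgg

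The covered Arf window held 45 CpG, more than 97.5% of all listed windows of protein-coding genes (median 13), and a GC content of 77%. The uncovered Ink4a window held 12 CpG at 60.3% GC. At Cdkn1a the covered upper start had 23 CpG and the uncovered lower start 2. Cdkn2b had 18, Cdkn2d 22 and Cdkn1b 30. Cdkn2c also has a pair of starts, with 33 CpG at the upper and 8 at the lower, which lie 1384 bp apart under the same interval. CpG count went with coverage over the whole genome: 6.00% of starts with 0 to 4 CpG lay under an interval, 29.2% of those with 5 to 13, 67.0% of those with 14 to 24 and 79.4% of those with 25 to 67. Of 2074 protein-coding genes with 2 listed starts, 19.6% had exactly 1 under an interval, as Cdkn2a and Cdkn1a did. Both starts were covered in 41.2%, as at Cdkn2c. In 86.9% of the 406 genes with exactly 1 covered, that start was the one with more CpG.

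**Figure D1:**
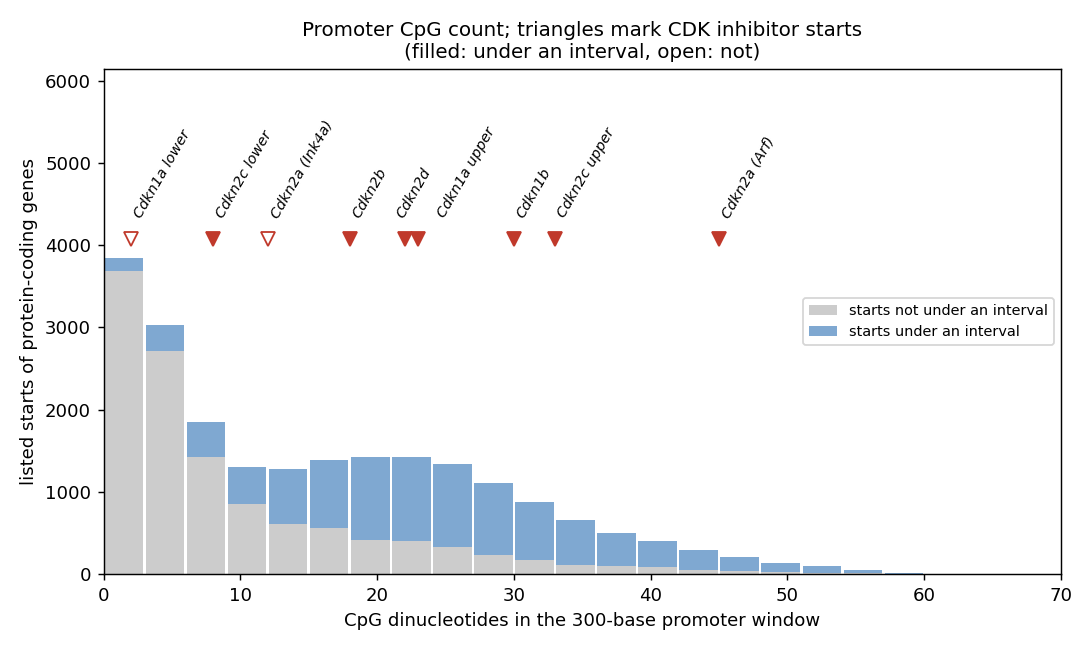
Number of listed starts of protein-coding genes (vertical axis) by the number of CpG dinucleotides in the 300-base promoter window (horizontal axis), split into starts under an interval (blue) and not (grey). Triangles mark the 9 starts of CDK inhibitor genes; the 2 open ones, at 2 and 12 CpG, are the lower Cdkn1a start and the Ink4a start, while the lower Cdkn2c start at 8 CpG is filled.

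Cdkn2a (chromosome 4, 89274473 to 89294619, minus strand, mm10) had 1 interval, at 89292906 to 89296926. It was 4021 bp wide, wider than 84.7% of intervals. Its total signal (area under the coverage) was 56041 and its maximum (highest coverage) 52, both in the authors' own unit. These were higher than in 83.3% and 90.05% of the 19147 called regions on the chromosomes. The interval reached from 1713 bp on the lower-coordinate side of the Arf start to 2307 bp on the other, and the maximum stood 256 bp upstream of that start. It covered 8.51% of the gene. The Ink4a start, 12427 bp away inside the gene, was 10714 bp from the edge of this interval and had none of its own. A site without an interval may lie under the authors' threshold or in a part of a region that the list leaves out, and low accessibility cannot be told apart from missing or unmapped DNA. Gm12610, a long non-coding RNA gene on the opposite strand that starts 561 bp beyond the Arf start, has its start under the same interval.

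Cdkn2b (chromosome 4, 89306289 to 89311032, minus strand) encodes p15Ink4b, an INK4 inhibitor induced by TGF-beta. Its interval, at 89309830 to 89312212, was 2383 bp wide, close to the median width of 2453 bp. The maximum of 55 was higher than in 92.25% of called regions and fell on the start base itself, while the total of 35364 exceeded only 61.9%. Cdkn2b thus had the narrower interval of the neighbouring pair, a lower total and a slightly higher maximum. Total divided by listed width was similar (14.8 at Cdkn2b, 13.9 at Cdkn2a). A listed interval may leave out part of its called region, so this ratio is not shown to be mean coverage. The Arf and Cdkn2b starts lie 16413 bp apart, and 12903 bp without an interval separate the intervals.

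Read row by row, the list from 250 kb on either side of the pair held 7 intervals. On the low-coordinate side stood a weak interval inside the non-coding gene Wincr1 (89056056 to 89058362, total signal 15758, maximum 15), close to the lowest total of the list, 15316. Next came a called region in 2 pieces at Mtap, a gene of methionine salvage that lies beside Cdkn2a. The first piece covered the lower end of Mtap (89135375 to 89141378) and held the maximum of 42, and the second lay inside the gene (89144166 to 89145899). Their shared total signal of 109304 was higher than in 96.6% of called regions. Then 147006 bp followed without an interval, a gap longer than 86.3% of the 21739 gaps between neighbouring intervals (median 21855 bp). The Ink4a start and most of Cdkn2a lie in that gap. After the Arf and Cdkn2b intervals came a second gap of 113011 bp, longer than 82.7% of gaps. Beyond it were 2 intervals inside Gm12610, at 89425224 to 89429063 (total 49985, maximum 40) and at 89469268 to 89472260 (total 32487, maximum 28). The Arf and Cdkn2b starts were therefore the only accessible sites listed within 100 kb of either gene. Each gene had 2 intervals in that window, against a median of 3 over all protein-coding genes (quartiles 1 and 7).

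**Figure D2:**
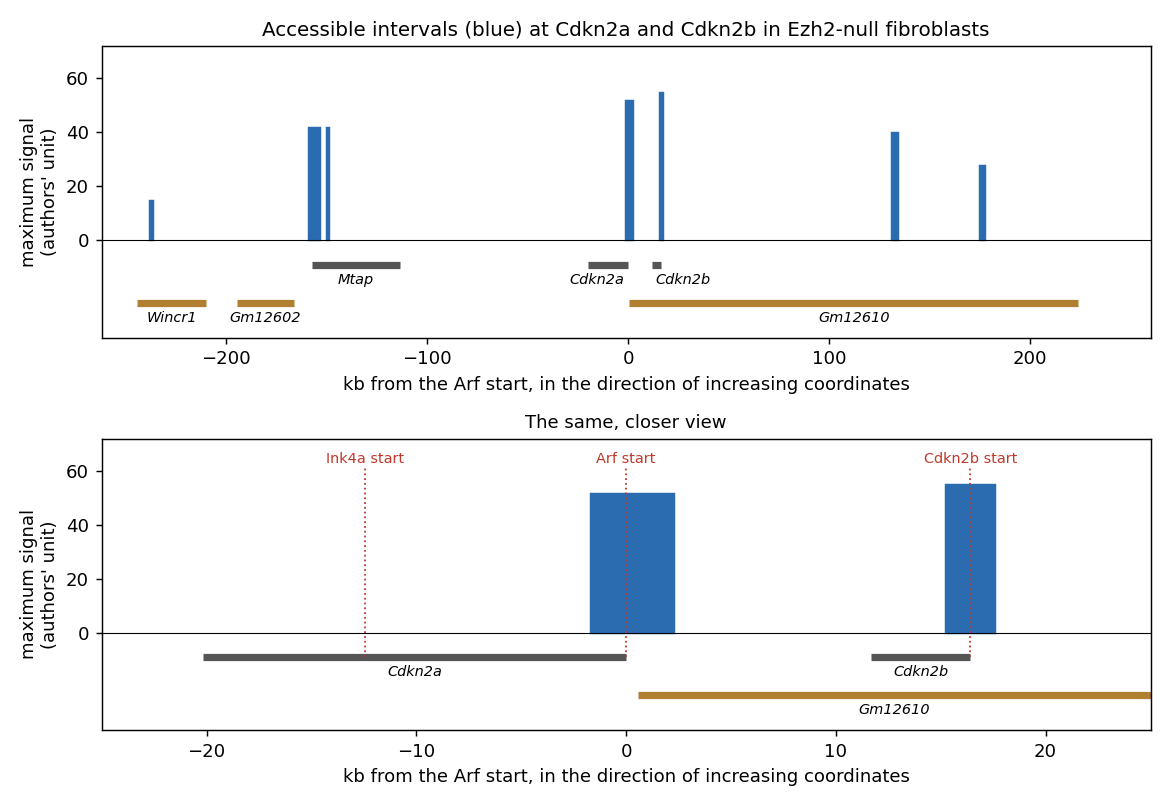
Intervals of the Ezh2 -/- list around Cdkn2a and Cdkn2b, as blue boxes whose width is the interval and whose height is the maximum signal of its called region in the authors' unit, by distance in kb from the Arf start; grey bars are protein-coding genes, brown bars long non-coding RNA genes. The closer view shows the intervals of maximum 52 and 55 at the Arf and Cdkn2b starts and none at the Ink4a start.

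Cdkn2c (chromosome 4, 109660876 to 109666756, minus strand) encodes p18Ink4c. Its interval, at 109664210 to 109668957, was the widest over a member, with 4748 bp (wider than 89.9% of intervals). The total was 61465 and the maximum 48, higher than in 86.3% and 86.5% of called regions. The maximum stood 154 bp upstream of the upper start and 1538 bp upstream of the lower one. Unlike the Cdkn2a pair, Cdkn2c had close neighbours among the intervals. An interval 2631 bp away, with a total of 35465 and a maximum of 27, lay over the listed starts of the non-coding gene 9630013D21Rik. Another, 7421 bp away on the other side, covered the end of Faf1, which encodes a Fas-associated factor (total 53862, maximum 49). A weak interval 85653 bp away (total 22309, maximum 18) covered no RefSeq gene end. With 4 intervals, its window was near the middle of all genes, 54.2% of which had fewer.

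Cdkn2d (chromosome 9, 21288459 to 21291421, minus strand) encodes p19Ink4d. It had the strongest called region of the 7 genes by both measures, reaching 76731 in total and 57 at the maximum, higher than in 91.6% and 93.6% of called regions. The region is listed in 2 pieces. The upper piece (21290515 to 21292123, 1609 bp) covered the start and held the maximum, 207 bp upstream of that start. The lower piece (21287023 to 21288928, 1906 bp) covered the other end of Cdkn2d and the end of the neighbouring gene Kri1, 490 bp away. The total is that of the whole region, so the part that belongs to the Cdkn2d start cannot be given. Within 100 kb lay 7 intervals, more than at 72.8% of genes. Among those away from the gene were intervals over an end of Keap1 (maximum 29), Atg4d (43) and Slc44a2 (38) and 1 near Pde4a (28). S1pr5 and Ap1m2, the latter 3194 bp from Cdkn2d, had no interval within 1 kb.

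Cdkn1a (chromosome 17, 29090979 to 29100722, plus strand) encodes p21Cip1, a main target of p53. Its interval lay inside the gene, at 29093153 to 29096049, and did not reach within 1 kb of either gene end. Counted by gene ends, 5 of the 7 members therefore had an interval (background 47.4%), and counted by listed starts 6 did (background 45.3% of 17492 genes with a listed start). The interval covered the upper start, 2790 bp inside the gene, and its edge was 2174 bp from the lower start. The total of 57783 and the maximum of 46 were higher than in 84.3% and 84.4% of called regions. The maximum stood 1835 bp downstream of the covered start, the farthest among the 7 covered starts. Its total divided by its listed width was 19.95, the highest of the intervals over members listed in 1 piece. This ratio cannot be read as mean coverage. At the interval inside Cpne5, also listed in 1 piece, it was 24.5, above the maximum of 19.

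A p53-type core, searched on both strands as CATGNNNNNNCATG, occurred in 1 of the 9 member windows. It was catgtcttgacatg, at bases 203 to 216 of the window at the uncovered lower Cdkn1a start. This match was present in 0.701% of all 21263 windows, 149 in number, of which 17 (11.4%) had their start under an interval. The share under an interval was 44.2% over all listed starts and 6.00% over those with 0 to 4 CpG. The difference was not tested. The other motifs were commoner or absent among the members. GC boxes (GGGCGG) occurred in 7 of the 9 windows and in 46.2% of all windows, with 5 matches at Cdkn2d, 4 at the upper Cdkn2c start and 3 at the Arf start. The E2F-type core TTTNNCGC occurred in both Cdkn2a windows, as tttcccgc at the Arf start and tttagcgc at the Ink4a start, and in 6.24% of all windows. CCAAT occurred in 4 member windows (38.2% of all), with 3 matches at Cdkn1b, and the E-box CACGTG, bound by Myc and Max among other factors, in 1, at the lower Cdkn2c start (7.84%). TATAAA (12.6%) and the AP-1 core TGANTCA (6.99%) occurred in none. All were searched on both strands, and matches of different patterns could overlap.

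Around Cdkn1a, 5 further intervals lay on the upstream side within 100 kb. They covered an end of Stk38 (maximum 44), both ends of Srsf3, which encodes a splicing factor (maxima 39 and 22), and the lower end of Trp53cor1 (39), the gene of the p53-induced non-coding RNA lincRNA-p21. The fifth, with a maximum of 17, lay inside Trp53cor1. The interval at the far end of Srsf3 was 7668 bp wide, wider than 97.4% of intervals, and its maximum of 22 was below the median of 27 over called regions. On the downstream side, 69952 bp passed without an interval until a site inside Cpne5 (total 35609, maximum 19), and Rab44 between them had none. The Cdkn1a window held 7 intervals over 10.1% of its length, the highest coverage of the 7 members (median of all genes 2.95%, upper quartile 8.23%).

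Cdkn1b (chromosome 6, 134920401 to 134925525, plus strand) encodes p27Kip1, which accumulates in resting cells. The interval at its start had the lowest total and the lowest maximum of the intervals over a member. The interval at its start (134919287 to 134921718) was 2432 bp wide; its total was 27937 and its maximum 31, higher than in 47.4% and 59.4% of called regions. Its maximum stood 123 bp upstream of the start. A wider interval followed 643 bp beyond the other end of the gene (134926168 to 134930882, 4715 bp), with a higher total of 46117 and a lower maximum of 27. It covered the start of Lockd, a non-coding RNA gene downstream of Cdkn1b, and another interval lay inside Lockd (total 34941, maximum 22). The remaining intervals within 100 kb lay at Crebl2 (maximum 49), over the overlapping ends of Gpr19 and the non-coding gene 2810454H06Rik (53) and inside Apold1 (24). The maxima at Crebl2 and Gpr19 were thus higher than those at Cdkn1b itself. Ddx47, 86087 bp away, had no interval within 1 kb.

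**Figure D3:**
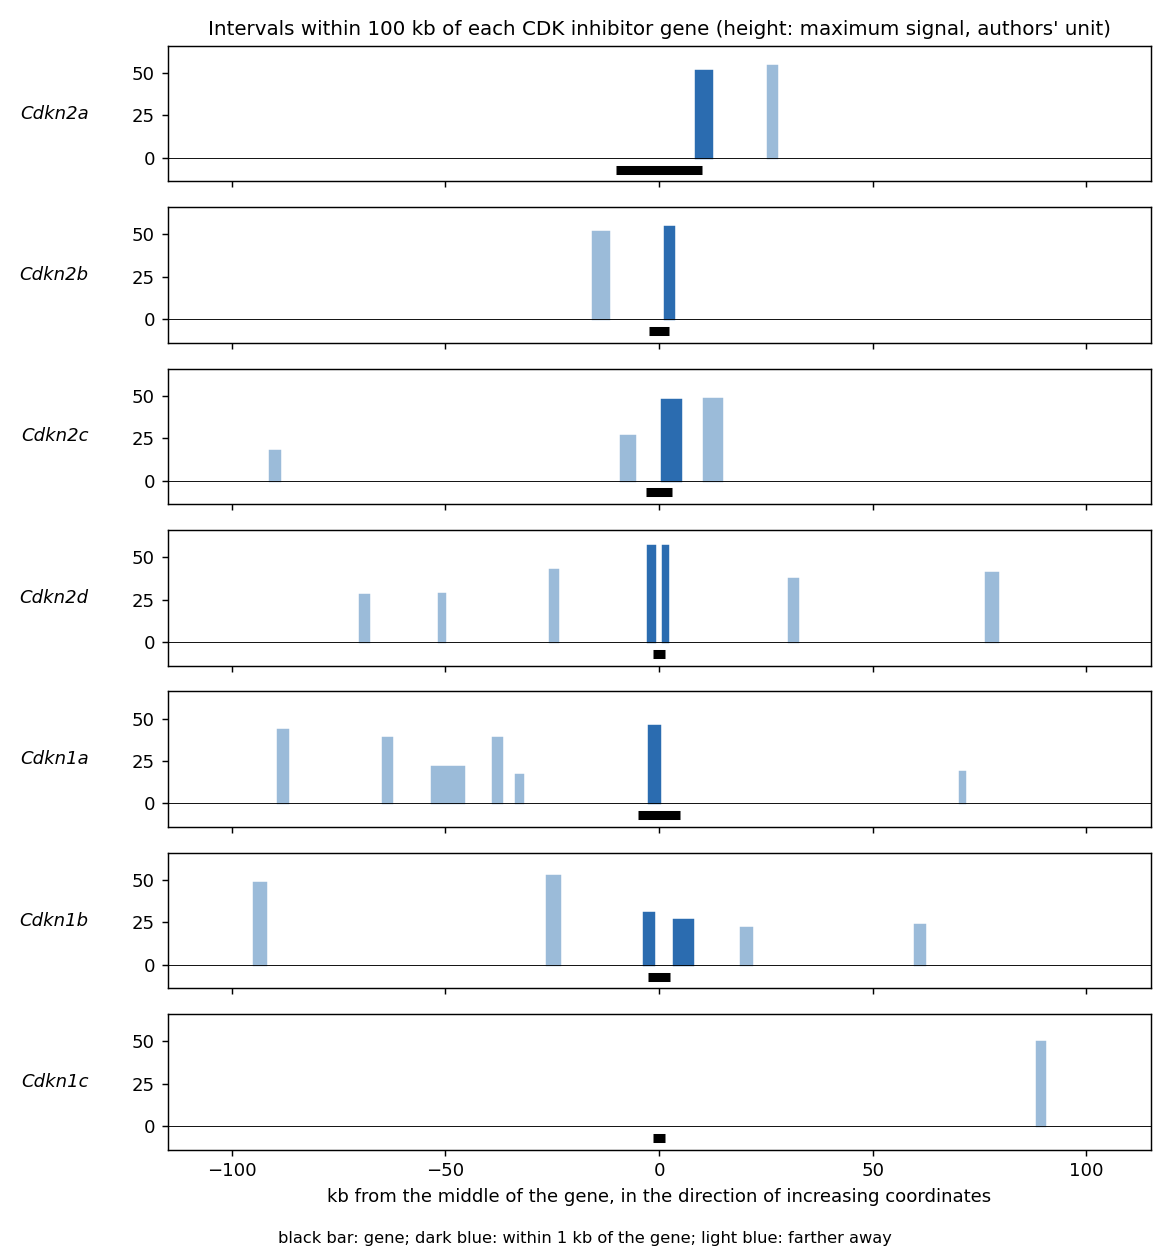
Intervals within 100 kb of each of the 7 genes, by distance in kb from the middle of the gene (horizontal axis); box width is the interval and box height the maximum signal of its called region in the authors' unit, dark blue within 1 kb of the gene (black bar) and light blue beyond. Cdkn1c has no dark box and a single light one 86867 bp away, and Cdkn2a and Cdkn2b share the same 2 boxes.

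Cdkn1c (chromosome 7, 143458339 to 143461059) encodes p57Kip2 and was the only member without an interval within 1 kb. The nearest was 86867 bp away, farther than for 76.75% of genes, and was the only interval within 100 kb. It covered the end of Nap1l4, a nucleosome assembly factor gene (143547926 to 143549927, total 50866, maximum 50). On the other side the nearest interval stood 160694 bp away, at 143294473 to 143297645, with a total of 37730 and a maximum of 50, higher than in 65.4% and 88.5% of called regions. It lay at the start of Kcnq1ot1, the non-coding RNA that is transcribed from the paternal chromosome and silences neighbouring genes in cis. Its maximum, at 143296577, was beside the listed start at 143296547. Between the 2 sites 250280 bp held no interval, a gap longer than 91.97% of all gaps. It held 3 whole protein-coding genes, Cdkn1c, Slc22a18 and Phlda2, all of which are imprinted. Besides Cdkn1c, 9 protein-coding genes were listed for this domain. Of these 9, 6 had an interval within 1 kb, a share of 66.7% near the background of 53.7%. Ascl2, outside the gap, was the third of the 9 without one, besides Phlda2 and Slc22a18. Tssc4 and Cd81 shared the highest total signal of the domain, 80802, in a region with a maximum of 53. Cars, an aminoacyl-tRNA synthetase gene, had an interval of total 25383 and maximum 42.

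Among the members with an interval, the signals spanned a moderate range. Taking for each gene the called region of highest total within 1 kb, the median total signal was 56912 over the 6 members and 38578 over all 11755 protein-coding genes with an interval, and the median maximum signal was 50 against 36. Cdkn2d ranked highest, above 82.2% of those genes in total and 86.85% in maximum. By this measure Cdkn2b had the lowest total of the 6, above 44.8%, but a maximum above 84.3%. Cdkn1b had the lowest maximum, above 25.4%. For Cdkn1b the measure took the downstream interval over the Lockd start (total 46117), not the interval at its own start. The total at its own start, 27937, was below that of Cdkn2b, 35364. The 4 INK4 maxima, between 48 and 57, were all above those of Cdkn1a (46) and Cdkn1b (31 at its start, 27 downstream). With 4 and 2 genes this is a description only. At 4 of the 6 members, Cdkn2b, Cdkn2c, Cdkn2d and Cdkn1b, the maximum of the called region lay inside the 300-base promoter window. The share was 30.0% over all genes with a listed start (5241 genes). Only 45.3% of those genes (7916) had a covered start, whereas all 6 members did, so the shares are not on a like basis. Beside 5241 and 7916 genes, 4 of 6 members is not shown to be a high share. At the Arf start the maximum lay just upstream of that window.

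**Figure D4:**
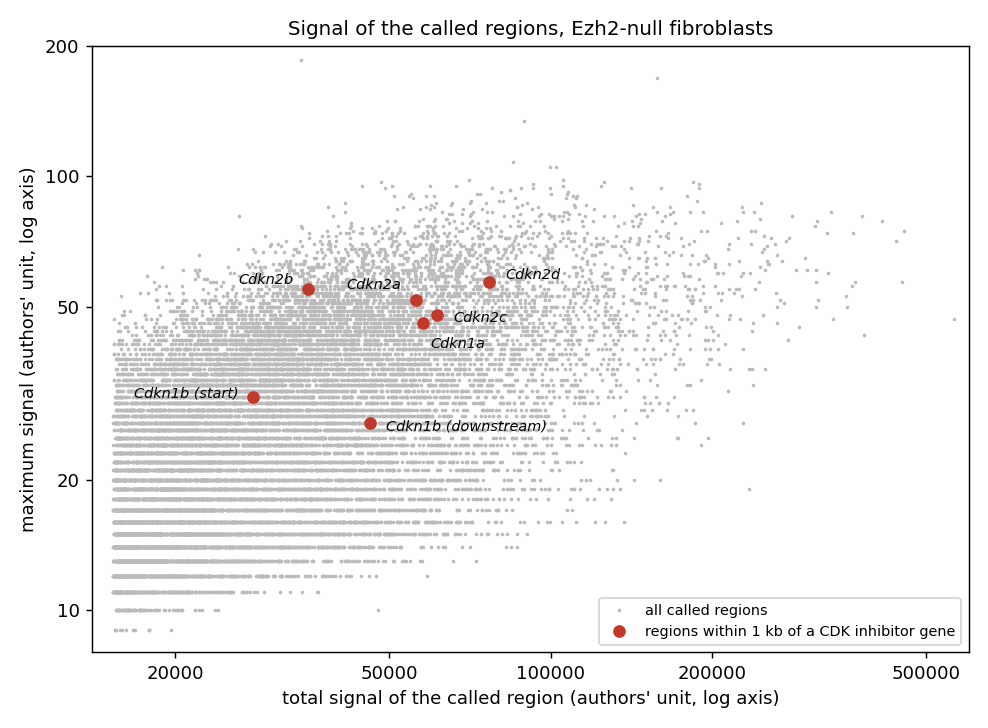
Total signal (horizontal, log axis) against maximum signal (vertical, log axis), both in the authors' unit, of every called region on the chromosomes (grey) and of the 7 called regions within 1 kb of a CDK inhibitor gene (red). The 4 INK4 regions and Cdkn1a sit at maxima of 46 to 57, and both Cdkn1b regions at 31 and 27.

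The partners of these inhibitors were mostly accessible too. All 9 genes of the G1 kinases and cyclins that the inhibitors bind had an interval within 1 kb (background 53.7%). Values for listed genes are those of the called region with the highest total within 1 kb. Another region near the same gene may have a higher maximum. Cdk4, the target of INK4 proteins, had a total of 193222 and a maximum of 64. That interval (127057553 to 127072075) passed both ends of Cdk4 (127063535 to 127067288), so its total includes DNA outside the gene. Cdk6, the paralog of Cdk4, had a total of 97916 and a maximum of 49. Within 1 kb of Cdk2, bound by CIP/KIP proteins, stood the highest maximum for these 9 genes by this measure, 76, at a total of 52487. That interval (128694811 to 128697129) covered no base of Cdk2, whose lower end is at 128697938. By total, Ccnd3 (109636) and Ccne2 (56992) led the cyclins. The lowest maxima of the regions so chosen were those at Ccnd2 (22) and Ccnd1 (25). Of 8 retinoblastoma and E2F genes, which act downstream of the kinases, 7 had an interval. E2f1 (total 81636), E2f3 (66401), Rbl1 (44486) and Rbl2 (35814) led, Rb1 itself stood at 26134 with a maximum of 25, and E2f2 had none.

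Of the 4 genes that link Arf to p53, 3 had an interval within 1 kb (background 53.7%, also for the lists that follow). Mdm2, the ubiquitin ligase that Arf binds, had a total of 83925 and a maximum of 63, and Trp53 had 65234 and 47. Usp7, which encodes a deubiquitinase of Mdm2 and p53, had only a weak interval inside the gene (total 17612, maximum 11), and Mdm4 had none. Of 12 genes of factors known to act on Cdkn2a or Cdkn2b, 10 had an interval. Among them were the Polycomb genes Cbx8 (total 274152) and Bmi1 (38249) and the helix-loop-helix inhibitor gene Id1 (158441). The H3K27 and H3K36 demethylase genes Kdm6b (87355) and Kdm2b (65826) were others. The Cbx8 interval (119039568 to 119059646) ran far past the upper end of the gene at 119040913. The Id1 interval (152733284 to 152743808) passed both ends of its gene (152736251 to 152737410). Both totals thus include DNA outside the named gene. Cbx7 had an interval inside the gene (40777, maximum 20), and Tbx3 and Zbtb17, which encodes Miz1, had none. All 4 genes of the ubiquitin ligase that degrades p27 had one. The totals were 77037 at Cks1b, 38379 at Cul1, 32078 at Skp2 and 21053 at Skp1. The Skp2 interval lay inside the gene, away from its ends. The Cks1b interval (89417768 to 89422486) lay mostly beyond the upper end of the gene at 89418291. The lists differ in gene number and neighbourhood, and their shares were not tested.

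**Figure D5:**
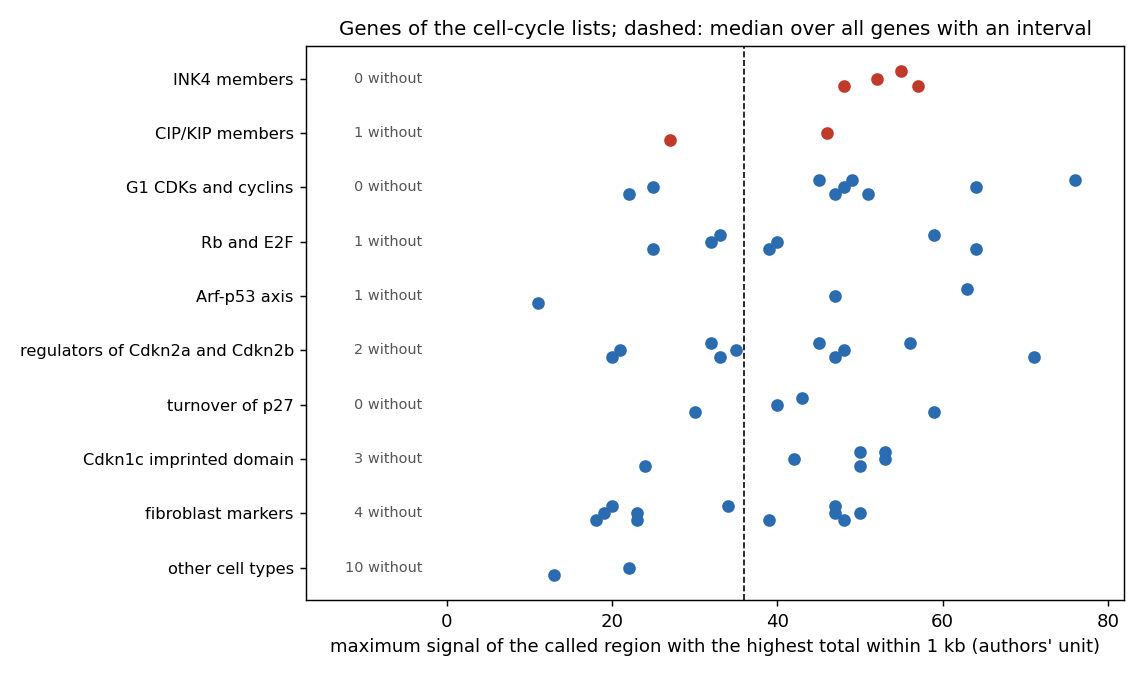
Maximum signal in the authors' unit (horizontal axis) of the called region with the highest total within 1 kb of each gene, by gene list (rows), with the number of genes without an interval at the left; red points are CDK inhibitor genes, and points are shifted vertically only to keep them apart. The dashed line is the median of 36 over all protein-coding genes with an interval; the 4 INK4 points lie to its right and Cdkn1b to its left.

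The whole list held 21835 intervals in 19215 called regions. The median total signal over called regions on the chromosomes was 29070 (quartiles 20504.5 and 45427) and the median maximum was 27 (quartiles 18 and 39). Of 15 fibroblast marker genes 11 had an interval within 1 kb (background 53.7%), among them Col1a1, Col5a1, Vim and Pdgfra, and Thy1, Fap, Dcn and Lum had none. Of 12 marker genes of other cell types 2 had an interval, Krt8 (maximum 13) and Pecam1 (22), while Ptprc, Epcam, Cdh5, Pou5f1, Alb and the others had none. The interval at Ezh2 itself (maximum 61) does not check the genotype, since the deleted part is not known. Of the 27 intervals within 100 kb of a CDK inhibitor gene, 17 covered an end of a protein-coding gene and 21 an end of any RefSeq gene. The 6 that covered none were those inside Cdkn1a, Cpne5, Lockd and Trp53cor1, 1 near Pde4a and 1 beyond the lower end of Cdkn2c. Shares over all intervals of the list are not given here, so these counts cannot be called high or low.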

How the data were processed

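Transposition was on whole cells, per the labels' protocols. The submitters' processing notes name Bowtie2 2.2.9, deepTools, SEACR and the build mm10 but no settings. Not given in the sources used here are the threshold, duplicate handling, transposase shift and merging of replicates. The deposited list has 6 columns and no header. By SEACR's column order, the total signal is a score the authors deposited per called region, and the maximum is a signal (coverage height) deposited without a stated normalization. Intervals with identical values were taken as pieces of 1 called region. 18.3% of intervals on the chromosomes hold no base of their region's maximum.

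Genes and starts came from RefSeq on GRCm38.p6, and the table of starts has no entry for Cdkn1c. Exons were not used here. An overlap of 1 bp counted, and percentiles give the share strictly lower. Lookups were tested on simulated data. No test was planned or made. Members and lists were chosen with earlier results of these data known, and motifs after the promoter windows had been read. The text names all members, their neighbours within 100 kb and genes of 10 lists. Some neighbours are not reported here. Python 3.11.15, numpy 2.4.6, pandas 2.3.3 and matplotlib 3.10.9 were used. Alternatives covered windows, overlap, signal thresholds, distance and ranking.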

Additional observations from a re-analysis of the deposited data

How the results depend on the processing

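The count of 6 members with an interval within 1 kb stayed at 6 for 500 and 2500 bp windows and for overlaps of 200 bp or more. It was also 6 for intervals holding their own maximum, totals at or above the median (background 36.3%) and listed starts (background 45.3%). It was 5 with gene ends (without Cdkn1a, background 47.4%) and 5 at or above the upper quartile of total signal (without Cdkn2b, background 21.7%). Background shares are not given here for the other windows, the longer overlap or intervals holding their own maximum. Cdkn1b passed the median and the upper quartile only through its downstream interval (total 46117), since the interval at its start (27937) is under the median of 29070. The 27 distinct intervals within 100 kb were 18 within 50 kb and 50 within 200 kb. Within 200 kb Cdkn2a and Cdkn2b had 6 intervals each and Cdkn1c 4, and within 50 kb Cdkn1c had 0. Ranks depended on the measure: Cdkn2b stood above 61.9% of called regions by total signal, 92.25% by maximum signal and 47.15% of intervals by width, and the upper piece at Cdkn2d above 91.6%, 93.6% and 15.8%. Ranked among intervals instead of called regions, the total at Cdkn2a stood above 77.0%. No paired analysis was possible because the list has no values per replicate, and leaving out a replicate was not possible for the same reason. With an unknown depth, a site without an interval is not shown to be closed.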
